A study of Citrus maxima with 6 samples.

Results

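The 11 genes described here had lower transcript levels in every library of the orange-pericarp mutant (MT) of pummelo than in every library of the wild type (WT), and nearly the same level in all MT libraries. They were chosen from the 29406 genes of the table by their RPKM, the read count of a gene divided by its exon length and by the reads of the library, which makes levels comparable between genes. All 6 values had to be at least 1 with a mean under 500, the highest MT value at most 0.67 of the lowest WT value, and the highest MT value at most 1.4 times the lowest MT value. In total, 14 genes met these limits and 3 of them were set aside because the choice of genes excluded 5 identifiers by name. The choice used the values of all 6 libraries, so the difference between MT and WT in these genes is a description and carries no test.

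The study sequenced RNA from the ripe pericarp, the peel of the fruit, of 'Guanxi' pummelo (WT) and of MT, a spontaneous bud mutation of the same cultivar whose ripe peel is orange and rich in β-carotene. There were 3 libraries from biological replicates of each genotype (WT1 to WT3 and MT1 to MT3), all of ripe fruit with no treatment. MT goes back to a single mutation event and is propagated by grafting, and the mutated gene is not given in the sources used here. The labels do not say whether the replicates were separate trees.

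Abscisic acid is a plant hormone that is made from carotenoids by cleavage, and citrus peel forms it while the fruit colours. Its level is set by synthesis and also by breakdown, in which the 8'-hydroxylases, cytochrome P450 enzymes, carry out the main first step. Besides such an enzyme, the named genes among the 11 matched a small copper protein of the cell surface and a regulator related to FLOWERING LOCUS T. Another matched a dirigent-type protein, a class that guides the coupling of phenolic radicals. The identifiers are those of sweet orange, whose gene models the study used, and gene names rest on similarity to Swiss-Prot proteins in the study's annotation. That annotation lists only genes that differed between these samples in the study's own count-based test, so an entry reflects that choice. Of the 11 genes, 7 had an entry there, 4 of them with a name and 3 with no match, and the other 4 had no entry in the rows used here. These rows numbered 291, against 29406 genes in the whole table. They were fewer than the genes the study reported as different, so a gene without an entry may still be one of those.

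The number of reads behind the RPKM scale was 9253681 to 10347017 in the WT libraries and 9787390 to 11108186 in the MT libraries. The middle of the log2 differences (MT minus WT) was 0.15 over the 16719 genes whose RPKM averaged 0.3 or more, so each log2 difference is also given relative to this median gene. As a check of the tissue, (R)-limonene synthase 1 (Cs5g22980), an enzyme of the peel oil glands, had 1.68 to 4.03 RPKM in WT and 0.0494 to 0.280 RPKM in MT. The epidermal cutin acyltransferase DCR (Cs9g17750) had 1229 to 1630 RPKM in WT and 97.4 to 978 RPKM in MT. Both markers were taken from the study's annotation, which lists genes that differed between these samples. A difference between MT and WT in them was thus fixed by that choice. The limonene synthase values were low, above all in MT, and give only a weak check of the tissue. The part of these marker differences in the levels of the 11 genes was not tested, and in whole pericarp fewer cells of a type cannot be told apart from less RNA per cell.

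The 11 genes covered a wide range of levels. Their mean RPKM in WT placed them between percentiles 15.4 and 96.2 of the 13155 genes with all values of at least 1 and a mean under 500, and in MT between percentiles 2.62 and 88.9. The MT mean was 20.5% to 53.7% of the WT mean, which is a 1.86-fold to 4.88-fold higher level in WT, with a median of 2.33-fold. The difference was at least 2-fold in 10 genes and at least 3-fold in 3. The median log2 difference was -1.19, against 0.15 over all genes tested.

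**Figure D1:**
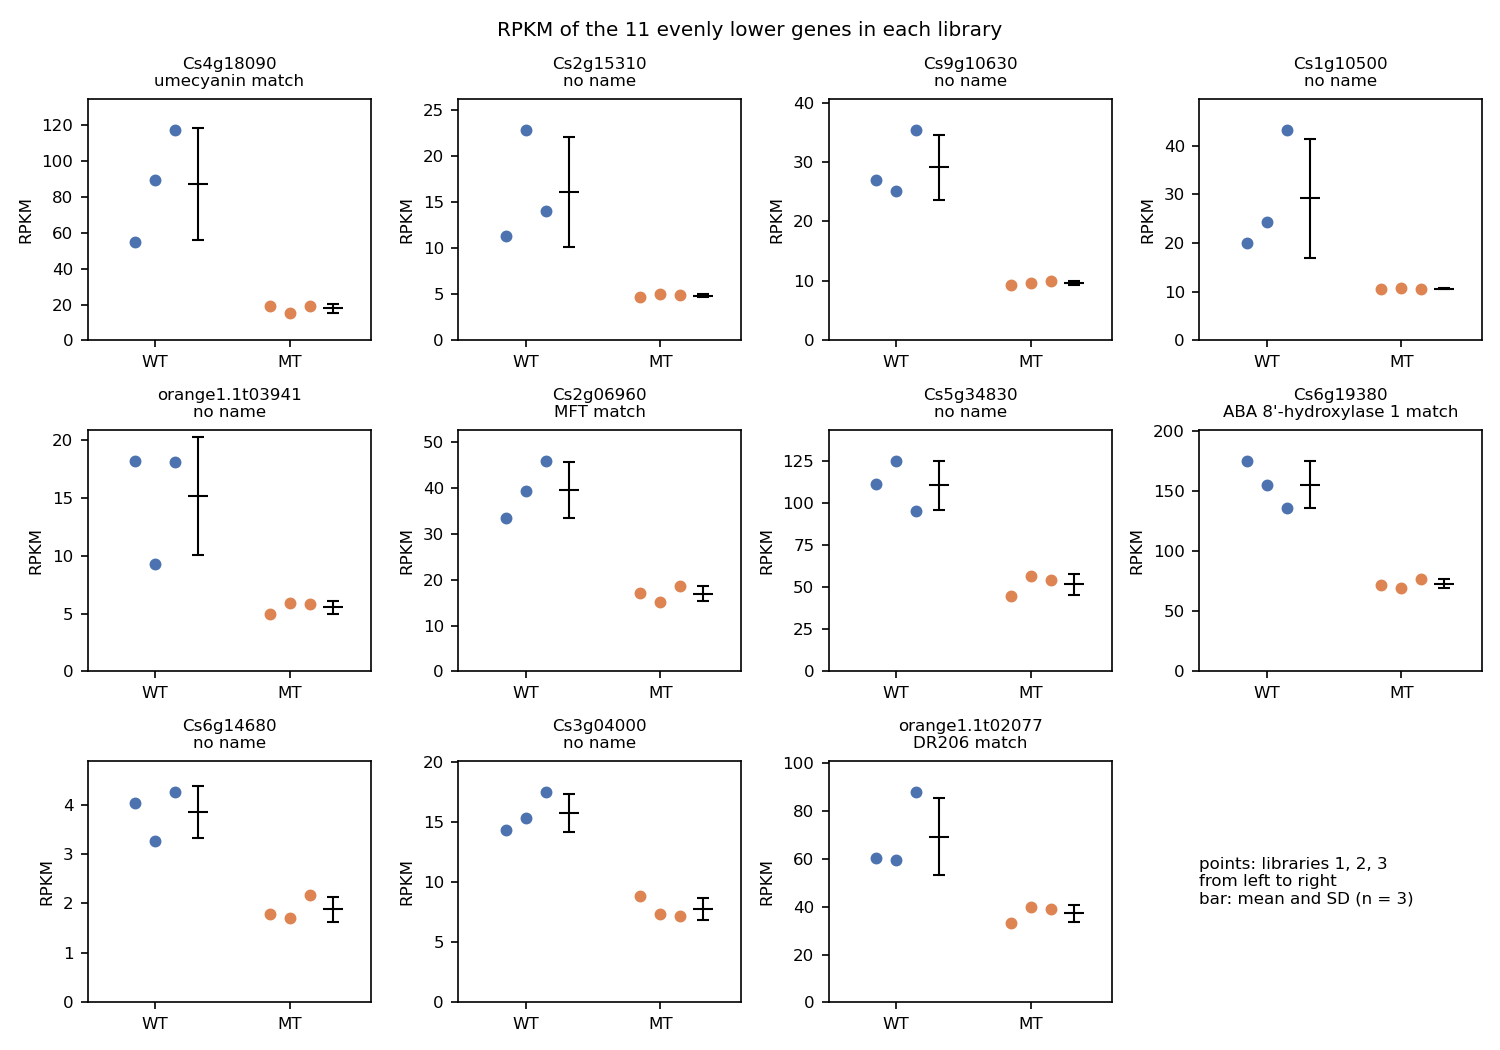
RPKM (linear axis from 0) of the 11 genes in the 3 WT libraries (blue points) and the 3 MT libraries (orange points), with the mean and SD of each genotype as a bar beside the points. The MT points lie close together and below all WT points in each panel, which the choice of genes required, while the WT points are wide apart in Cs1g10500 (20.0 to 43.1 RPKM) and narrow in Cs3g04000 (14.4 to 17.5 RPKM).

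The most abundant of the 11 genes in both genotypes was Cs6g19380, which matched abscisic acid 8'-hydroxylase 1, the enzyme that starts the breakdown of abscisic acid. It had 175, 155 and 136 RPKM in WT1, WT2 and WT3 and 72.1, 69.4 and 77.0 RPKM in MT1, MT2 and MT3. The groups did not overlap, and the lowest WT library was 58.5 RPKM above the highest MT library. The means were 155 ± 19.6 RPKM in WT and 72.8 ± 3.83 RPKM in MT (SD, n = 3 each), a 2.13-fold difference, or a log2 difference of -1.08 (-1.23 relative to the median gene, SE 0.14). Any pair of a WT and an MT library gave a fold between 1.76 and 2.52. This gene had the most reads of the 11, 9134 over the WT libraries and 4460 over the MT libraries, so its counting error was the smallest (a coefficient of variation of 1.82% in WT and 2.60% in MT).

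Cs2g06960 matched MOTHER of FT and TF 1 (MFT), a protein of the FLOWERING LOCUS T family that in Arabidopsis acts in abscisic acid responses of germinating seeds. Its level was 33.5, 39.3 and 45.8 RPKM in WT1, WT2 and WT3, and 17.0, 15.3 and 18.7 RPKM in MT1, MT2 and MT3. The lowest WT library was 14.9 RPKM above the highest MT library. The means of 39.6 ± 6.15 RPKM in WT and 17.0 ± 1.70 RPKM in MT (SD, n = 3 each) differed 2.33-fold, with a log2 difference of -1.19 (-1.34 relative to the median gene, SE 0.16).

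Among genes that matched proteins of the cell surface or of defence, Cs4g18090 had the largest fold of the 11. It matched umecyanin, a small blue copper protein known from horseradish roots. Its RPKM was 55.1, 89.3 and 117 in WT1, WT2 and WT3 against 19.2, 15.2 and 19.2 in MT1, MT2 and MT3. All MT libraries were below the WT libraries, of which WT1 was the lowest and WT3 the highest. The mean was 87.2 ± 31.1 RPKM in WT and 17.9 ± 2.29 RPKM in MT (SD, n = 3 each), a 4.88-fold difference with a log2 difference of -2.20 (-2.35 relative to the median gene, SE 0.27). Because of the spread in WT, the fold ranged from 2.87 to 7.70 over the 9 pairs of libraries, and from 4.04 to 5.78 when a library was left out.

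The gene orange1.1t02077 matched DR206 of pea, a dirigent-type protein of the disease resistance response, and had the smallest fold of the 11. It had 60.6, 59.8 and 87.9 RPKM in WT1, WT2 and WT3 and 33.1, 39.7 and 39.0 RPKM in MT1, MT2 and MT3. WT3 stood above the other WT libraries, and all of them were above MT. The means were 69.4 ± 16.0 RPKM and 37.3 ± 3.64 RPKM (SD, n = 3 each), a 1.86-fold difference (log2 -0.87, or -1.02 relative to the median gene, SE 0.18).

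Of the genes with no Swiss-Prot match, Cs5g34830 was the second most abundant of the 11 in both genotypes. Its level was 111, 125 and 95.0 RPKM in the WT libraries and 44.5, 56.4 and 54.1 RPKM in the MT libraries, in the order of their numbers. The means were 110 ± 14.8 and 51.7 ± 6.29 RPKM (SD, n = 3 each), a 2.13-fold difference. Its fold was thus nearly that of the abscisic acid 8'-hydroxylase gene, but its MT libraries were further apart, with a highest-to-lowest ratio of 1.27 against 1.11.

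Cs9g10630, also with no match, had 26.9, 25.1 and 35.3 RPKM in WT1, WT2 and WT3 and 9.35, 9.65 and 10.1 RPKM in MT1, MT2 and MT3. Its WT mean of 29.1 ± 5.45 RPKM was 3.01-fold its MT mean of 9.69 ± 0.36 RPKM (SD, n = 3 each). The remaining gene without a match, orange1.1t03941, had 18.2, 9.33 and 18.1 RPKM in WT and 4.94, 5.93 and 5.79 RPKM in MT. Here WT2 was far below the other WT libraries but above all MT libraries. The means of 15.2 ± 5.08 and 5.55 ± 0.54 RPKM (SD, n = 3 each) differed 2.74-fold. Only 90 reads over the 3 MT libraries stood behind this gene, which has an exon length of 529 bp in the values.

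The other 4 genes had no entry in the annotation rows used. Cs2g15310 had 11.3, 22.8 and 14.1 RPKM in WT and 4.65, 5.01 and 4.91 RPKM in MT, with means of 16.1 ± 5.97 and 4.86 ± 0.18 RPKM (SD, n = 3 each) that differed 3.31-fold. Cs1g10500 had 20.0, 24.3 and 43.1 RPKM in WT and 10.6, 10.7 and 10.5 RPKM in MT, with means of 29.1 ± 12.3 and 10.6 ± 0.11 RPKM (SD, n = 3 each) and a 2.76-fold difference. In both genes a single WT library, WT2 in the former and WT3 in the latter, was far above the other WT libraries, while the MT libraries of Cs1g10500 differed by a factor of only 1.02, the narrowest range of the 11. Cs3g04000 had 14.4, 15.4 and 17.5 RPKM in WT and 8.82, 7.37 and 7.19 RPKM in MT, and its means of 15.8 ± 1.58 and 7.79 ± 0.89 RPKM (SD, n = 3 each) differed 2.02-fold. Cs6g14680, the least abundant, had 4.04, 3.25 and 4.25 RPKM in WT and 1.78, 1.70 and 2.17 RPKM in MT, and its means of 3.84 ± 0.52 and 1.88 ± 0.25 RPKM (SD, n = 3 each) differed 2.04-fold. The last 2 genes rested on few reads in MT, with 96 and 79 reads over the 3 libraries and as few as 23 in MT2 for Cs6g14680.

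By level, 5 of the 11 genes had another place in MT than in WT, with shifts of at most 2 places. The abscisic acid 8'-hydroxylase gene and Cs5g34830 were the first and the second in WT and in MT, and Cs6g14680 was the last in both. The umecyanin gene was at place 3 in WT and 4 in MT, and DR206 at place 4 in WT and 3 in MT. Cs2g15310 went from place 8 in WT to 10 in MT, Cs3g04000 from 9 to 8 and orange1.1t03941 from 10 to 9. In WT umecyanin and DR206, neighbours in the order with 87.2 ± 31.1 and 69.4 ± 16.0 RPKM (SD, n = 3 each), did not differ beyond their spread, whereas in MT the lowest library of DR206 (33.1 RPKM) was above the highest of umecyanin (19.2 RPKM). Cs1g10500 and Cs9g10630 also could not be ordered in WT, with means of 29.14 and 29.11 RPKM. In MT the lowest library of Cs1g10500 (10.5 RPKM) was just above the highest of Cs9g10630 (10.1 RPKM). With counting errors of 6.31% and 10.3% in MT, this small gap does not settle their order there either.

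The limit of 1.4 within MT fixed that the MT libraries agree, whereas no such limit was set within WT. The ratio of the highest to the lowest library had a median of 1.202 (range 1.02 to 1.27) within MT and of 1.41 (range 1.22 to 2.16) within WT over the 11 genes. Over the 13155 genes these medians were 1.37 and 1.32. The ratio was tighter in MT than in WT in 10 of the 11 genes, the exception being Cs3g04000 (1.23 in MT and 1.22 in WT), and in 42.1% of the 13155. The WT range divided the 11 genes into 4 with a ratio above 1.9 (Cs1g10500, Cs4g18090, Cs2g15310 and orange1.1t03941) and 7 below 1.5, with none between. These 4 are also among the 5 genes with the largest fold, although both measures use the same WT values. The fold of Cs1g10500 fell from 2.76 to 2.095 when WT3 was left out, and that of Cs2g15310 from 3.31 to 2.62 when WT2 was left out.

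Because whole reads could be recovered from the RPKM values, the spread between libraries can be set against the spread that read counting alone would give. The median coefficient of variation between libraries was 9.77% in MT and 18.7% in WT, and the median counting error was 7.99% in MT and 5.36% in WT. In MT, the spread was below the counting error in 6 of the 11 genes, and in WT in 2 of the 11. For Cs1g10500, the MT libraries had 274, 245 and 238 reads, and their RPKM varied by 1.003% where counting alone gives 6.31%. In the same gene the WT libraries varied by 42.2%, with a counting error of 4.10%. The limit within MT acts on counting error and on other spread alike, and for genes with few reads, such as Cs6g14680 and Cs3g04000, evenness in MT is measured no better than a counting error of 19.6% and 17.9%.

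**Figure D2:**
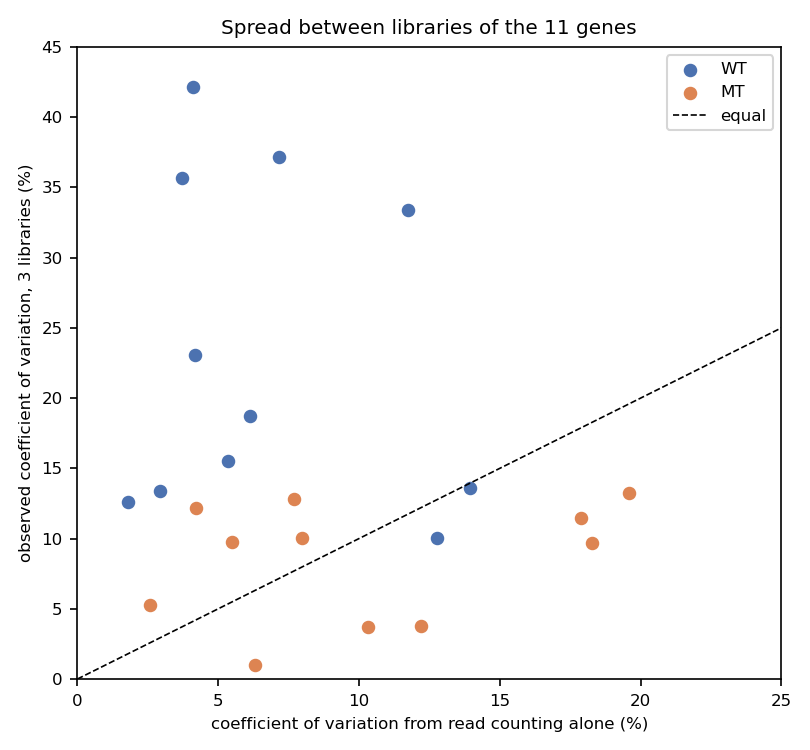
Observed coefficient of variation between the 3 libraries of a genotype (vertical axis, percent) against that from read counting alone (horizontal axis, percent) for the 11 genes in WT (blue) and MT (orange), with a dashed line where both are equal. In MT 6 points are below the line and in WT 2, and the highest WT point is Cs1g10500 at 42.2%.

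The libraries differed in how often they held the highest or the lowest value. In MT, the highest library was MT1 in 2 genes, MT2 in 5 and MT3 in 4, and the lowest was MT1 in 5, MT2 in 4 and MT3 in 2, so that no MT library was the extreme one throughout. In WT, WT3 was the highest in 7 genes, and WT1 and WT2 in 2 each. Over the 13155 genes, WT1 was the highest WT library in 5869, WT2 in 3179 and WT3 in 4107. The highest MT library over the 13155 genes was MT1 in 2583, MT2 in 5875 and MT3 in 4697, and MT1 was the lowest in 5450. By the count of highest values, the libraries thus ranked as in the whole table in MT, but not in WT. By the count of lowest values MT1 came first in both, but MT2 and MT3 changed places (3467 and 4238 of the 13155 genes).

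Another 36 genes met the limit between MT and WT but had MT libraries that differed by more than 1.4-fold. They had a median highest-to-lowest ratio of 2.30 within MT and of 1.55 within WT, and a median fold of 3.55. In these 36 genes, MT3 was the highest MT library in 26 and MT2 the lowest in 22, an order that the 11 genes did not share. As a share of the WT mean, the level of the 36 genes had a median of 24.3% (MT1), 19.1% (MT2) and 34.8% (MT3), and that of the 11 genes one of 40.4%, 39.0% and 45.6%. Both sets were chosen on these values, so this difference was not tested.

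**Figure D3:**
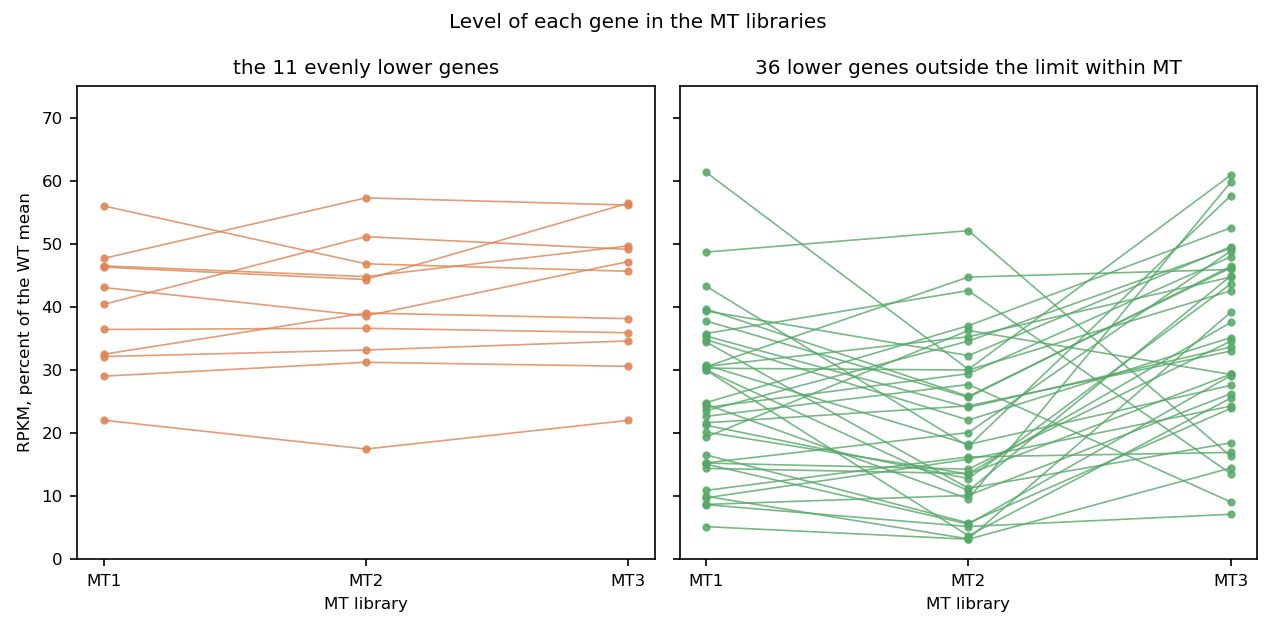
RPKM in each MT library as a percent of the gene's WT mean (vertical axis) for the 11 genes (left, orange) and for the 36 lower genes outside the limit within MT (right, green), where each line joins the values of a gene and the libraries have no order. The 11 genes run nearly level between 17.5% and 57.3%, while many of the 36 have their lowest value in MT2 and their highest in MT3.

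Among the 13155 genes, 6968 (53.0%) had MT libraries within 1.4-fold of each other and 51 (0.388%) met the limit between MT and WT, of which 14 (27.5%) met both. With the limits mirrored, 239 genes (1.82%) were higher in MT and 28 of them (11.7%) were even. On values rescaled so that the median gene ratio between libraries was equal, 87 genes met the limit between MT and WT and 26 of them (29.9%) were even, against 161 and 19 (11.8%) in the other direction. The number of genes meeting the lower limit therefore depended on the scale, and 24 genes met the whole rule after rescaling, of which 10 were among the 11. The umecyanin gene left it, since its MT libraries then differed by 1.403-fold, while its mean was 5.48-fold lower in MT.

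**Figure D4:**
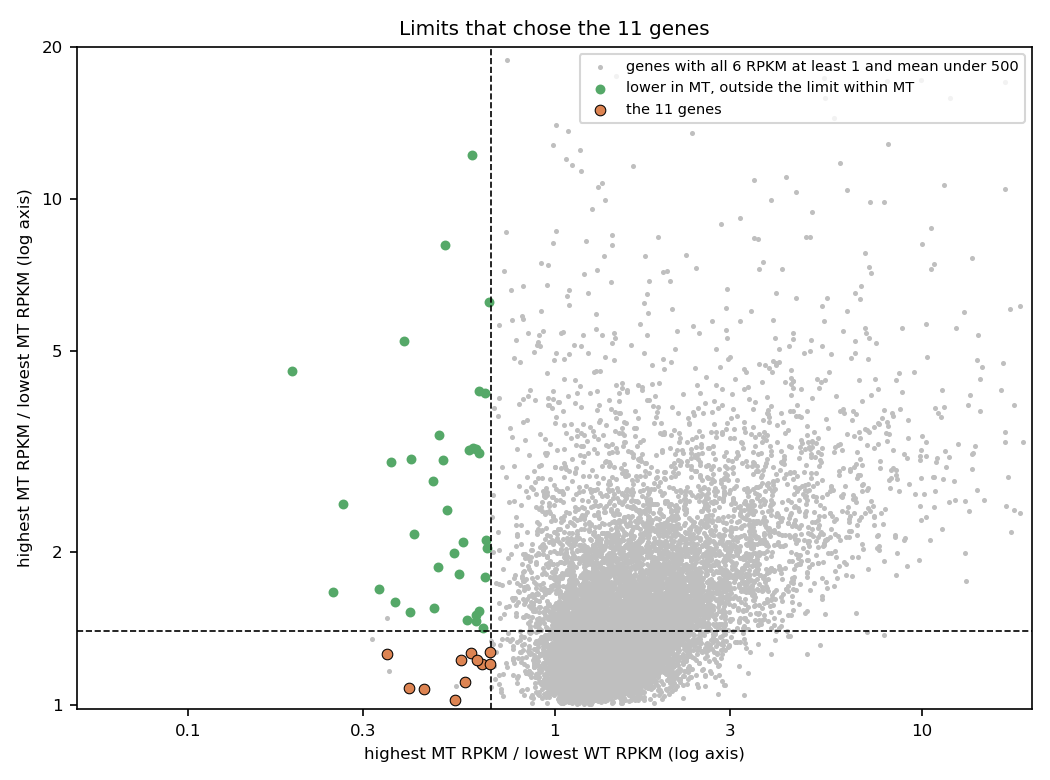
The highest MT RPKM divided by the lowest WT RPKM (horizontal, log axis) against the highest divided by the lowest MT RPKM (vertical, log axis) for genes with all values of at least 1 and a mean under 500, with the limits of 0.67 and 1.4 as dashed lines. The 11 genes (orange) lie in the lower left field and the 36 uneven ones (green) above them, the few grey points in these fields are genes excluded by name, and 35 of the 13155 genes lie outside the axes.

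Genes lay close to both sides of the limit between MT and WT. Just inside the limit of 0.67 were Cs6g14680 (0.667), orange1.1t02077 (0.665) and orange1.1t03941 (0.635), and just outside it were Cs2g28180 (0.671), Cs5g08400 (0.672) and Cs7g02850 (0.680), the last a match to GEM-like protein 5. Cs2g28180 had 245, 304 and 243 RPKM in WT and 161, 163 and 150 RPKM in MT, and so was as even in MT as the 11 genes. Nearest inside the limit within MT were Cs6g14680 (1.273), Cs5g34830 (1.266) and Cs4g18090 (1.262), and nearest outside were Cs5g21220 (1.419), Cs4g16920 (1.463), a match to Nudix hydrolase 20, and Cs4g20020 (1.471). No gene that met the other limits thus lay between 1.273 and 1.419, apart from those excluded by name.

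All 11 genes had every MT library below every WT library, which the choice required and which held for 5.09% of the 13155 genes. In the fit across all genes with limma, 0 of the 11 were called lower at a Benjamini-Hochberg adjusted p of 0.05, where 0.0179% of the 16719 genes were called lower. At an unadjusted p of 0.05 in limma all 11 were lower, against 4.93% of genes, and 10 of the 11 at an adjusted p of 0.1, against 0.538%. On recovered reads, limma voom called 0 of all 16719 genes at an adjusted p of 0.05, and so 0 of the 11 (all 11 were lower at an unadjusted p of 0.05). At 0.1 voom called 5 of the 11 lower, against 0.102% of the 16719 genes. Without MT3, limma at an adjusted p of 0.05 called 7 of the 11 lower, against 314 of all 16714 genes (863 called in both directions). The fit of 6 libraries called 0 of the 11 lower, against 3 of all 16719 genes (6 called in both directions). The study's own DESeq test had listed 7 of the 11 at an adjusted p under 0.05, among the 291 genes in the annotation rows used here. The choice of the genes used this contrast, and these counts are given for reference alone.

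The abscisic acid 8'-hydroxylase gene was the only one of the 7 hormone genes in the annotation rows that met the limits. The study put genes on this annotation for their difference between these samples, so the list is no independent evidence of direction. Over all 16719 genes, limma called 0.0179% lower and 0.0179% higher at an adjusted p of 0.05, 0.538% and 2.02% at 0.1, and 4.93% and 16.9% at an unadjusted p of 0.05. In limma, 1 of the 7 was called lower and 0 higher at an adjusted p of 0.05 (3 lower and 2 higher at 0.1, and 5 lower and 2 higher at an unadjusted p of 0.05), while voom called 0. Gibberellin 20 oxidase 2 (Cs5g28720), which makes precursors of active gibberellins, had 6.18, 6.46 and 5.44 RPKM in WT and 0.491, 0.368 and 0.464 RPKM in MT. It was even in MT (ratio 1.33) but under the limit of 1 RPKM there. The other lower hormone genes were uneven, such as that for 1-aminocyclopropane-1-carboxylate synthase (Cs1g21210), the enzyme that makes the precursor of ethylene. It had 79.8, 102 and 163 RPKM in WT and 34.4, 12.4 and 51.5 RPKM in MT. The indole-3-acetic acid-amido synthetase gene GH3.1 (Cs1g22140), whose enzyme conjugates auxin, had 124, 70.8 and 99.2 RPKM in WT and 14.5, 8.83 and 49.8 RPKM in MT.

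The annotation rows held 16 genes of cytochrome P450 and other oxidases, the abscisic acid 8'-hydroxylase gene included. In 7 of them all MT libraries were below WT and in 8 all were above, against 5.36% and 23.3% of the 16719 genes tested, and nothing is read from this since the study chose the genes on these samples. Limma called 1 lower and 0 higher at an adjusted p of 0.05 (4 and 7 at 0.1, and 8 and 8 at an unadjusted p of 0.05), while voom called 0. For defence there were 20 genes, 7 lower and 13 higher in all MT libraries (against the same 5.36% and 23.3%), of which limma and voom called 0 of the 18 tested at an adjusted p of 0.05. At 0.1 limma called 3 lower and 12 higher, and at an unadjusted p of 0.05 it gave 6 lower and 12 higher. The DR206 gene was among the 7 lower ones and was the only one of them within the limits. Other lower defence genes had MT libraries further apart, such as that for a thaumatin-like protein (Cs5g10550), with 75.2, 60.5 and 91.5 RPKM in WT and 11.5, 15.2 and 37.0 RPKM in MT. The lists of transcription regulators, membrane transport, glycosyltransferases, phenylpropanoid and flavonoid enzymes, surface lipids, cell wall, kinases and plastid proteins held none of the 11. The lists were made from words in the names, so only the 4 named genes could enter one. A transcription regulator (Cs8g03200) and a surface lipid gene (Cs3g23440) met all the limits but were among the identifiers excluded by name.

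By their identifiers, 9 of the 11 genes were on 7 chromosomes of the sweet orange genome and 2 were on sequences with no chromosome number, as were 14.2% of the 13155 genes. None of the 11 stood next to another. Of the 36 genes within 2 places of these 9 in the order of identifiers, 19 had all values of at least 1 and a mean under 500. Among these 19, 0 had all MT libraries below WT, against 5.09% of all such genes, and 3 (15.8%) had all MT libraries above WT, against 23.0%. Their median log2 ratio of mean RPKM + 0.5, MT against WT, was 0.05. Beside Cs6g19380, for example, Cs6g19370 had 11.1, 13.4 and 12.1 RPKM in WT and 16.9, 14.4 and 11.8 RPKM in MT. The exon length behind the values had a median of 944 bp in the 11 genes (398 to 2325 bp) and of 1789 bp in the 13155.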

How the data were processed

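The deposited values are RPKM, which the authors made from single-end reads of 100 bp, with no scaling between libraries described. The reads were uniquely aligned with TopHat to the sweet orange genome. The submitters' processing notes name Bowtie2 2.1.0, whereas the paper names an earlier version of Bowtie for the genome index. The read counter, the genome version and the use of strand are not given in the sources used here. All 6 columns were used (0 left out). Groups were taken from the labels. Read totals and exon lengths were recovered from the steps of the RPKM values, such that every value of the 16946 genes with a read in all libraries was whole within 0.005 reads. Counting error is the Poisson error of these reads and leaves out PCR duplicates. Reads of pummelo that differ more from sweet orange, or of near-identical gene copies, can be missing from a gene.

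The members and the gene lists were chosen with earlier results of these data known. The genes named are all 11 that met the limits, the 3 nearest on each side of the limits, neighbours by identifier, and genes of the annotation lists that hold a member. Examples among the last 2 were picked after their values were seen. Limma 3.58.1 in R 4.3.3 was fitted on log2(RPKM + 0.5) of genes whose RPKM averaged 0.3 or more (MT minus WT, eBayes with trend, two-sided, Benjamini-Hochberg adjustment), and fold changes on this scale are understated for low genes. The recovery of reads and the limma fit were tested on simulated data. Alternatives were other pseudocounts, filters, scalings and limits, eBayes without trend, a replicate block, limma voom on recovered reads, and leaving out each library. All else was computed in Python 3.11.15 (numpy 2.4.6, pandas 2.3.3, matplotlib 3.10.9).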

Additional observations from a re-analysis of the deposited data

How the results depend on the processing

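The number of genes meeting the limits moved from 11 to 24 after rescaling by the median ratio, to 3 with a limit of 0.5 between MT and WT, to 4 with 1.2 within MT, to 47 with no limit within MT and to 5 with 1.4 within WT as well. It was 13 with equal sums and 10 with all values at least 3. Leaving out a library gave 17 to 164 genes, the most without MT3, and all 11 were met each time, since fewer libraries can only loosen these limits. The limma calls over all genes moved from 6 to 10 with a pseudocount of 0.1, 11 with the median ratio, 15 without trend, 122 with the replicate block, 0 with voom (3580 at an unadjusted p of 0.05, against 3645 in the fit of RPKM) and 427 at an adjusted p of 0.1. Without 1 library the calls ranged from 0 (without any of the WT libraries, 2260 to 2977 at an unadjusted p of 0.05) to 863 (without MT3). The members called lower moved from 0 to 1 with a pseudocount of 0.1, where 5 of all 16719 genes were called lower. They were also 1 with a mean RPKM of at least 3 (5 of 12403 genes), with the median ratio (7 of 16719) and with equal sums (4 of 16719). With the replicate block they were 3 (31 of 16719 genes), and at an adjusted p of 0.1 they were 10 (90 of 16719). When a library was left out they ranged from 0 to 7, the most without MT3 (314 of 16714 genes). The causes of these moves were not tested. The median log2 difference of the 11 genes was -1.35 after rescaling by the median ratio, against -1.19, and between -1.26 and -1.15 in the other settings. The labels do not say whether the replicate numbers pair the samples, and 3 libraries of each genotype cannot decide it. Deviations of same-numbered libraries correlated with r of -0.05, 0.19 and 0.16. WT2 correlated best with MT2 and WT3 with MT3, whereas WT1 correlated best with MT3 (0.16). Depth limits the evenness of the genes with few reads, the fewest being 23 in a library.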
